A study of Mus musculus with 6 samples.

Results

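The genes described here encode the 4 Janus kinases (Jak1, Jak2, Jak3 and Tyk2) and the 5 signal transducers and activators of transcription (STATs) that are not chiefly interferon factors (Stat3, Stat4, Stat5a, Stat5b and Stat6). The rule that picks them is a list of gene symbols, drawn up with earlier results of these data known, and all 9 were present among the 54532 genes of the count table. All 9 also passed the filter on low counts that left 16003 genes for testing. Epididymal white fat (eWAT), a visceral depot of male mice, was compared between 3 control mice and 3 mice with cachexia, the wasting that accompanies cancer. All 6 were male C57BL/6 mice without an engineered allele, described in the methods as 6 to 10 weeks old. The mice with cachexia had been inoculated under the skin with cells of the Lewis lung carcinoma (LLC), a transplantable tumor of C57BL/6 mice, and eWAT of both groups was collected on day 21. The cachexia group therefore stands for a single tumor line at a single time point, and whole tissue was sequenced, so that fewer cells of a type and less RNA per cell cannot be told apart.

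Cytokine receptors of the JAK-STAT pathway have no kinase of their own. A bound cytokine brings receptor-attached JAK kinases together, which phosphorylate the receptor and then the STAT proteins that dock on it, and the STATs enter the nucleus as pairs to switch on target genes, among them the SOCS genes whose products shut the pathway down again. In fat, growth hormone acts mainly through JAK2 and STAT5, cytokines of the interleukin-6 family through JAK1 and STAT3, and interleukin-4 through STAT6.

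The libraries held between 14928766 and 18855546 counted reads. The adipocyte markers were abundant in every sample, with a summed level of 31350 to 44880 counts per 1000000 reads (CPM) in control mice and 35390 to 49440 CPM in cachectic mice. The 7 epididymis markers summed to no more than 4.52 CPM in any mouse. Of the immune and blood lists, 8 of the 9 tested neutrophil markers and 6 of 6 erythroid markers rose in cachexia, as did 5 of 8 endothelial markers. Control replicate 1 stood apart from the other control mice on the second principal component, and both members called below were also called without it.

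Jak3 and Stat3 were the members called by the main test, and each roughly doubled in cachectic eWAT. In the quasi-likelihood test of edgeR, adjusted by Benjamini-Hochberg over all tested genes (threshold 0.05), 2 of the 9 members rose, 0 fell and 7 did not pass. Across all tested genes 9.0% rose and 8.63% fell. At an unadjusted p under 0.05 the counts among the members were 2 higher and 1 lower. No share of all genes is given for these counts. DESeq2 called 2 members higher and 1 lower, against 1955 higher and 1928 lower among all tested genes. The member lower in both was Stat5a. CPM values of the groups did not overlap for 4 of the 9 members (Jak3, Stat3, Stat5a and Stat6), against 40.5% of all tested genes.

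**Figure D1:**
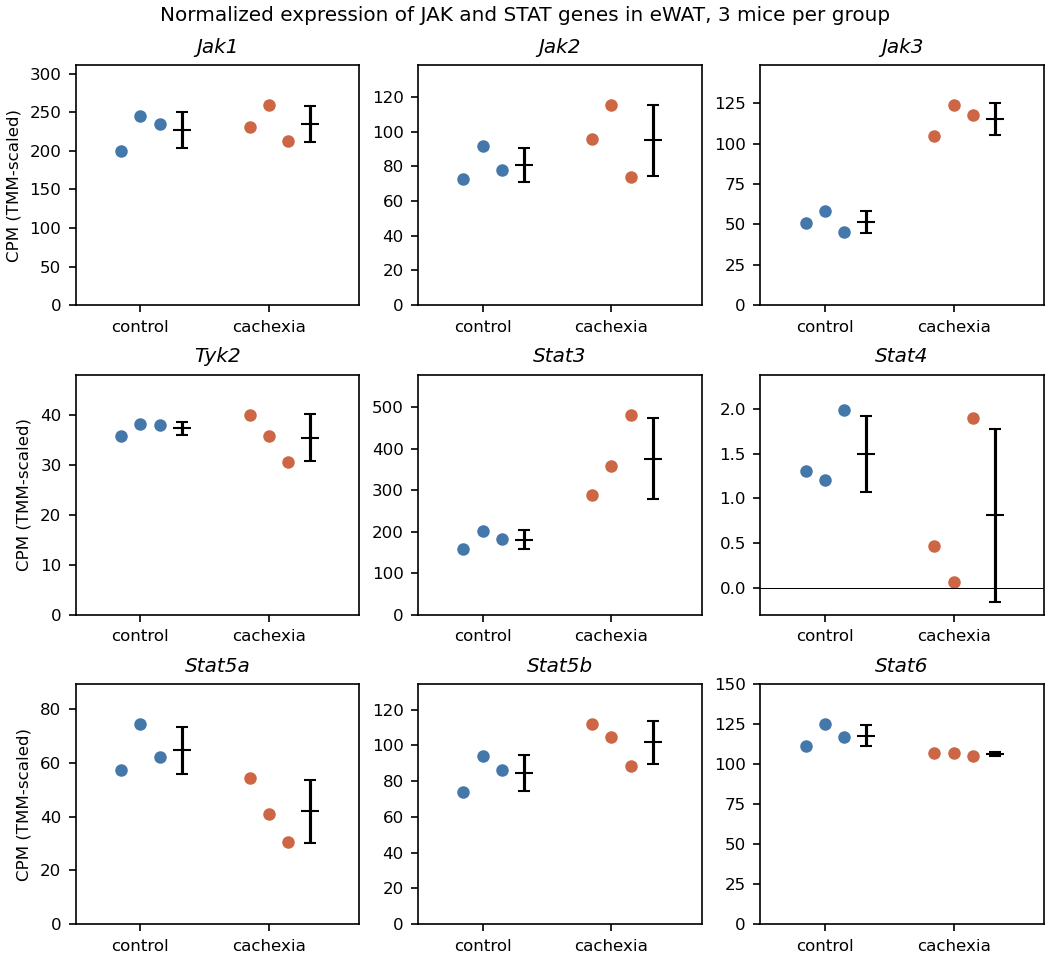
CPM, scaled by the trimmed mean of M values (TMM), of the 9 genes in each of 3 control (blue) and 3 cachexia (orange) samples, with the group mean and SD in black; each panel has its own linear axis. The cachexia samples lie wholly above the control samples for Jak3 and Stat3 and wholly below them for Stat5a and, by a narrow margin, Stat6.

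Among the kinases, Jak3 was the gene that passed the edgeR test. JAK3 is the kinase that pairs with the common gamma chain of the receptors for interleukins 2, 4, 7, 9, 15 and 21, and it is best known from lymphocytes. Jak3 (ENSMUSG00000031805) lies at chr8:71676296-71690575 on the plus strand. Its level was 50.7, 58.5 and 45.3 CPM in the control mice and 104.5, 124 and 118 CPM in the cachectic mice. The lowest cachexia sample was thus well above the highest control sample. Jak3 rose 2.24-fold, a log2 fold change of 1.16 (SE 0.14, 95% confidence interval 0.83 to 1.49, adjusted p = 0.00326 from edgeR). The two-sided exact permutation test gave p = 0.1, the smallest value that 3 mice against 3 allow. The edgeR call held in all 16 alternative settings, with adjusted p up to 0.0251.

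Markers of T and NK cells, the lymphocytes in which JAK3 is classically studied, did not move with Jak3 between the groups. Their summed level was 15.7 to 26.7 CPM in control mice and 9.10 to 13.0 CPM in cachectic mice, so the groups were ordered opposite to Jak3. Of the 10 tested T and NK markers, 0 were called in either direction by edgeR, and at an unadjusted p under 0.05 there were 6 lower and 0 higher. Neutrophil markers were higher in cachexia, as Jak3 was, from a summed 32.2 to 49.2 CPM in control mice to between 254.5 and 755 CPM in cachectic mice. Endothelial markers summed to between 1509 and 1588 CPM in control mice and to between 2338 and 3248 CPM in cachectic mice. Within the cachexia group, replicate 2 had the most Jak3 but the lowest neutrophil sum. The endothelial sum and the T and NK sum were highest in that replicate. The part of any of these cell types in the level of Jak3 was not tested.

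Insl3, which encodes a hormone of the insulin family best known from Leydig cells, lies inside the 3′ end of Jak3 on the same strand. In the GENCODE M21 annotation the genes share 404 exonic bases, which are 7.55% of the exonic bases of Jak3, all in its UTR, and 64.9% of those of Insl3. Insl3 had between 21 and 82 reads per sample and a log2 fold change of 1.44 (SE 0.36, adjusted p = 0.0324 from edgeR). How reads in the shared bases were counted is not given in the sources used here, so the value of Insl3 is uncertain. Raver2 shares 4 bases of span with Jak1, and Nab2 shares 40 with Stat6. The noncoding genes and pseudogenes within Jak1 (Gm24468, Gm12785), Tyk2 (1700084C06Rik) and Stat4 (Gm28177, Gm3940) had no more than 2 reads in any library. Transcripts of Gm28177 held 17.98% of the 100-base windows of Stat4, and 1700084C06Rik held 6.21% of those of Tyk2, matched on either strand. How reads in these stretches were counted is not given either, so their effect on the values of Stat4 and Tyk2 is uncertain.

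The other 3 kinases had values that overlapped between groups. JAK1 serves the interleukin-6, interferon and common gamma chain receptors and was the most abundant JAK transcript per length. Jak1 (chr4:101152367-101265282, minus strand) was at 200.3, 245 and 235 CPM in control mice and at 231, 259 and 213 CPM in cachectic mice. Both groups covered nearly the same range, and the log2 fold change was 0.05 (95% confidence interval -0.30 to 0.40, adjusted p = 0.853 from edgeR).

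JAK2 transmits growth hormone, prolactin, erythropoietin and leptin signals. For Jak2 (chr19:29251828-29313080, plus strand) the control mice gave 72.6, 91.8 and 78.0 CPM and the cachectic mice 95.8, 115 and 74.2 CPM. The highest values were in cachexia replicates 1 and 2, while replicate 3 lay among the controls. The log2 fold change was 0.23 (95% confidence interval -0.19 to 0.66, adjusted p = 0.405 from edgeR).

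TYK2, the partner kinase of interferon and interleukin-12 receptors, had the lowest kinase transcript. Tyk2 (chr9:21104068-21131243, minus strand) was measured at 35.8, 38.2 and 38.0 CPM in control mice and at 40.1, 35.7 and 30.7 CPM in cachectic mice. The log2 fold change was -0.07 (95% confidence interval -0.39 to 0.24, adjusted p = 0.750 from edgeR), and the control values lay within the cachexia range. For these 3 kinases the intervals left room for changes of up to 0.40, 0.66 and 0.24 on the log2 scale upward.

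STAT3 carries signals of the interleukin-6 family, leptin and interleukin-10, and its transcript had the highest mean CPM of the 9 genes in cachectic mice. Stat3 (ENSMUSG00000004040) lies at chr11:100885098-100939540 on the minus strand. It was at 157, 202 and 183 CPM in control mice and at 289, 359 and 483 CPM in cachectic mice. Cachexia replicate 3 was the highest and replicate 1 the lowest of its group, which still exceeded every control. Stat3 rose 2.09-fold, a log2 fold change of 1.06 (SE 0.22, 95% confidence interval 0.56 to 1.56, adjusted p = 0.0162 from edgeR). The exact permutation test again gave its minimum of p = 0.1. The call held in 15 of 16 alternative settings. Without control replicate 3 the log2 fold change was still 1.06, with an adjusted p of 0.0745 from edgeR. The cachexia sample with the most Stat3 was also the one with the highest sum of neutrophil markers, at 755 CPM, whereas replicates 1 and 2, with 284 and 254.5 CPM, were in the reverse order to Stat3. The part of neutrophil RNA in the level of Stat3 was not tested.

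**Figure D2:**
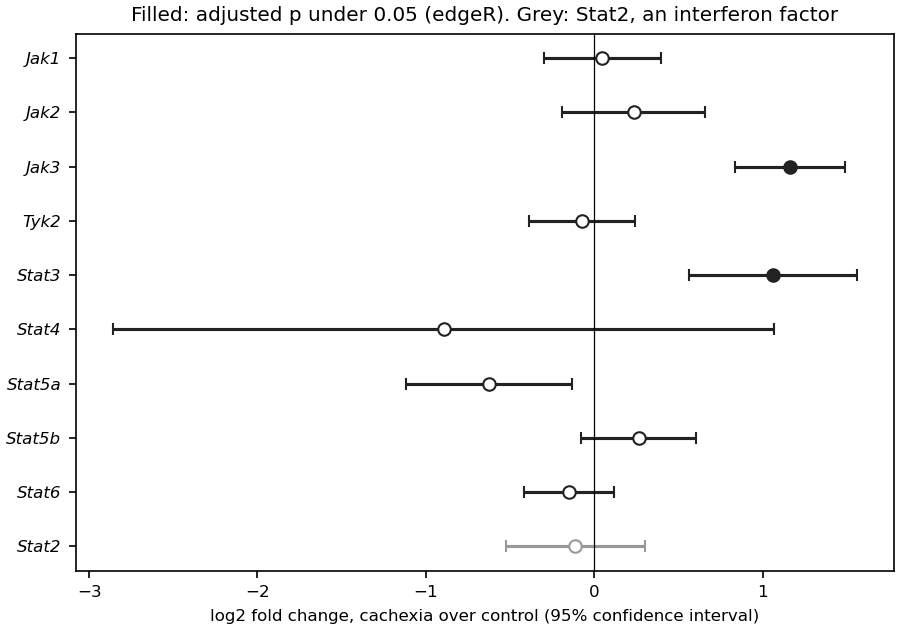
Log2 fold change of cachexia over control for the 9 genes (black) and for the interferon factor Stat2 (grey), with 95% confidence intervals from edgeR; filled points have an adjusted p under 0.05. Jak3 and Stat3 stand at 1.16 and 1.06, the interval of Stat5a lies wholly below 0, and that of Stat4 is the widest.

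STAT5A and STAT5B, the mediators of growth hormone and prolactin, are encoded by neighboring paralogs. Stat5a (ENSMUSG00000004043, chr11:100859351-100885169, plus strand) was at 57.4, 74.3 and 62.0 CPM in control mice and at 54.2, 40.8 and 30.7 CPM in cachectic mice. Every cachexia value was below every control value, although cachexia replicate 1 came within a few CPM of the lowest control. The log2 fold change was -0.62 (SE 0.21, 95% confidence interval -1.12 to -0.13), and the adjusted p of 0.0813 from edgeR missed the threshold. The adjusted p was 0.0451 with DESeq2 and 0.0379 with edgeR without cachexia replicate 1, the 2 of 16 settings that passed.

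The paralog did not share that direction. Stat5b (chr11:100780731-100850724, minus strand) was at 73.9, 94.1 and 86.1 CPM in control mice and at 112, 104.5 and 88.5 CPM in cachectic mice, with a log2 fold change of 0.26 (95% confidence interval -0.08 to 0.60, adjusted p = 0.247 from edgeR). Within each mouse the ratio of Stat5a to Stat5b, both in fragments per kilobase and 1000000 reads (FPKM), was 0.604, 0.613 and 0.559 in control mice and 0.376, 0.303 and 0.269 in cachectic mice. The groups were far apart relative to their spread, at 0.592 ± 0.0289 (SD, n = 3) and 0.316 ± 0.0547 (SD, n = 3), with the minimum p = 0.1 in the exact permutation test. Because a ratio within a sample does not depend on the scaling between samples, it shows unequal levels of the paralogs but not which of them changed. Transcripts of the paralogs shared 265 identical windows of 100 bases, 3.44% of those of Stat5a and 4.79% of those of Stat5b. How reads from these stretches were divided between the paralogs was not tested.

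STAT6 is the factor of interleukin-4 and interleukin-13. Stat6 (chr10:127642986-127660957, plus strand) gave 112, 125 and 117 CPM in control mice and 107, 107 and 105 CPM in cachectic mice. The groups did not overlap, but the gap was small, and the log2 fold change of -0.15 (95% confidence interval -0.41 to 0.12, adjusted p = 0.404 from edgeR) did not pass.

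STAT4, the factor of interleukin-12 in T and NK cells, had few reads. Stat4 (chr1:51987148-52107189, plus strand) had 26, 21 and 35 reads in the control libraries and 8, 1 and 29 reads in the cachexia libraries. Cachexia replicate 3 lay among the controls while replicates 1 and 2 were below them, and the log2 fold change of -0.89 had a 95% confidence interval from -2.86 to 1.07 (adjusted p = 0.498 from edgeR). This wide interval left room for a rise or a fall of Stat4, and neither was shown.

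Stat2, a STAT of the interferon pathway given for comparison, was at 45.4 ± 3.37 CPM in control mice and at 41.99 ± 9.62 CPM in cachectic mice (SD, n = 3 each). Its log2 fold change of -0.11 (SE 0.18, adjusted p = 0.699 from edgeR) did not pass. A test of the difference between Stat3 and Stat2 was not made.

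To show the DNA in front of the members that rose, the bases immediately before the annotated Jak3 and Stat3 genes were taken from RefSeq promoter windows (GRCm38.p6, 300 bases per window). They are given 5′ to 3′ on the strand of the gene, for Jak3 at chr8:71676133-71676295 (plus strand) and for Stat3 at chr11:100939541-100939790 (minus strand). A 29-base stretch from the window of Socs3, the feedback inhibitor that STAT3 induces, is set beside them, at chr11:117969502-117969530 (minus strand), with its match to the STAT motif TTCNNNGAA in capitals.
Jak3: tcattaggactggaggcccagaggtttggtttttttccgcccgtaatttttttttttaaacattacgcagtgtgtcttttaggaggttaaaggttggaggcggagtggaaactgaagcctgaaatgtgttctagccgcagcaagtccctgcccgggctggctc
Stat3: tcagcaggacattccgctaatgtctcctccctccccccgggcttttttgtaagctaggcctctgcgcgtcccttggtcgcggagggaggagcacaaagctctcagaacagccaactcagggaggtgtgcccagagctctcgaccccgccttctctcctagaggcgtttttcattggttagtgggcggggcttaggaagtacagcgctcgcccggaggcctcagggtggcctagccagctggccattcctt
Socs3: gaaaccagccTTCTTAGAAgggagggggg
TTCNNNGAA reads the same on both strands. It was found in 2726 of 32851 RefSeq promoter windows (8.3%) and in 0 of the 12 windows of the 9 members, which says only that these letters are not in those windows. The Socs3 match begins 154 bases before the RefSeq start of the gene, inside the longer Socs3 gene of the deposited files. A match is a description of the letters and was not tested as a binding site.

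Stat5b, Stat5a and Stat3 lie side by side on chromosome 11 within 158.8 kb, yet had log2 fold changes of 0.26, -0.62 and 1.06. Stat5a and Stat3 converge from opposite strands and share their last 72 exonic bases, all UTR, which make up 0.76% of the exonic bases of Stat3 and 1.01% of those of Stat5a. Whether counting used strand is not given in the sources used here. The next tested coding genes on the far side of Stat3, Cavin1 (caveolar coat protein) and Atp6v0a1 (proton pump subunit), had log2 fold changes of -0.22 and -0.34 and did not pass the test. These neighbors, and those of Jak3, were chosen after their values were seen.

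Around Jak3, 3 of the 8 tested coding genes within 100 kb rose, 1 of them the overlapping Insl3. Slc27a1, a fatty acid transporter, had a log2 fold change of 2.67 (SE 0.19, adjusted p = 0.000878 from edgeR), and B3gnt3, a glycosyltransferase whose end lies next to that of Jak3 on the other strand, had one of 1.72 (SE 0.15, adjusted p = 0.00132 from edgeR). Fam129c had a log2 fold change of 1.49 (SE 0.62) and did not pass (adjusted p = 0.134 from edgeR). Fcho1, further along, had a log2 fold change of -0.99 and did not pass (adjusted p = 0.0803 from edgeR).

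**Figure D3:**
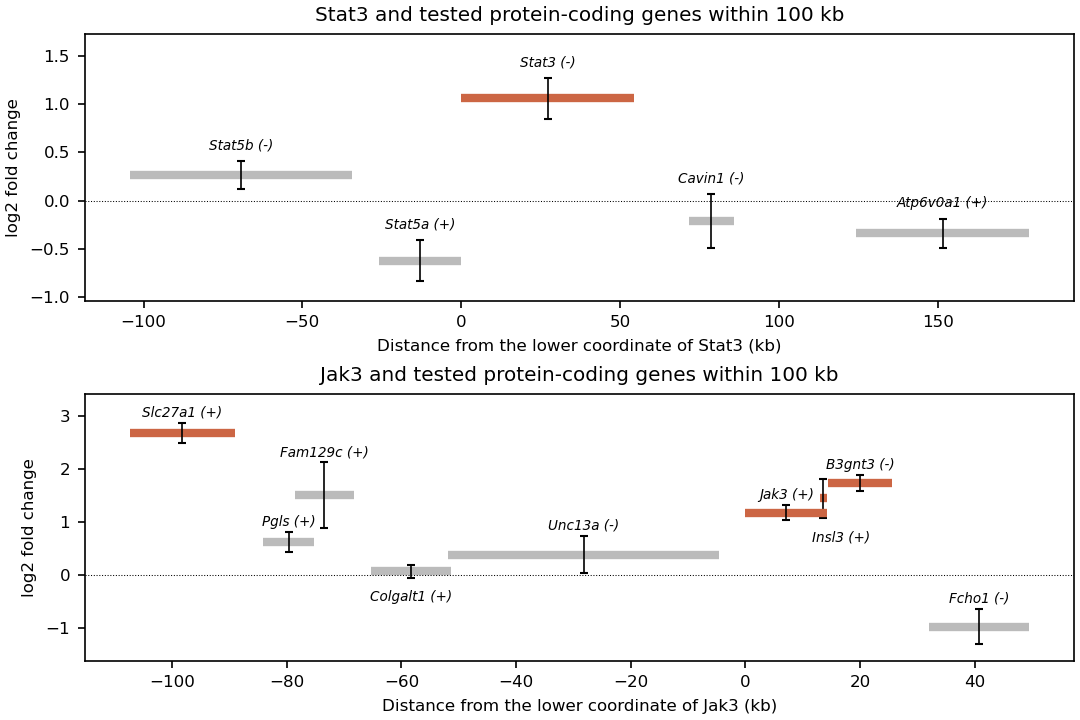
Tested protein-coding genes within 100 kb of Stat3 (top) and Jak3 (bottom), as bars at their distance from the lower coordinate of that gene (kb) and at the height of their log2 fold change, with SE and with strand in parentheses; orange bars rose and grey bars did not pass. Stat3 stands alone at 1.06 among 4 neighbors that did not pass, and Slc27a1, Insl3 and B3gnt3, which rose, and Fam129c, which did not pass, lie above Jak3.

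On the FPKM scale, which divides by gene length so that genes can be compared within a sample, the order of the 9 transcripts differed between groups. In control mice it ran Jak1 (30.97 ± 3.15 FPKM, SD, n = 3), Stat6 (26.5 ± 1.45), Stat3 (18.7 ± 2.29), Jak2 (15.9 ± 1.91), Stat5b (15.1 ± 1.78), Jak3 (9.50 ± 1.21), Stat5a (8.94 ± 1.18), Tyk2 (5.37 ± 0.177) and Stat4 (0.382 ± 0.108). The ranges of Jak1 and Stat6, of Stat3 and Jak2, of Jak2 and Stat5b and of Jak3 and Stat5a overlapped across mice. Within each of the 3 control mice Jak1 was nevertheless above Stat6 and Stat3 above Jak2, while Jak2 was above Stat5b, and Jak3 above Stat5a, in 2 of 3. In cachectic mice Stat3 led with 38.6 ± 9.97 FPKM, followed by Jak1 (31.7 ± 3.14), Stat6 (23.6 ± 0.321), Jak3 (21.1 ± 1.74), Jak2 (18.5 ± 3.99), Stat5b (17.9 ± 2.14), Stat5a (5.74 ± 1.63), Tyk2 (5.05 ± 0.681) and Stat4 (0.204 ± 0.244). Here the ranges of Stat3 and Jak1, of Jak3 and Jak2, of Jak2 and Stat5b and of Stat5a and Tyk2 overlapped. Within mice Jak3 was above Jak2 in 3 of 3, Stat3 above Jak1 and Stat5a above Tyk2 in 2 of 3, and Jak2 above Stat5b in 1 of 3. Jak3 had moved from the lower part of the order, beside Stat5a, to the middle, beside Jak2.

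Expressed as a share of the summed FPKM of the 4 kinases, Jak3 made up 16.7%, 15.9% and 13.7% of the JAK transcript pool in control mice and 25.6%, 26.5% and 31.2% in cachectic mice. The mean share was 15.4% ± 1.57 and 27.8% ± 2.99 (SD, n = 3 each), a difference of 12.3 percentage points. The share of Jak1 was 50.2% ± 1.94 in control and 41.6% ± 0.348 in cachectic mice, without overlap, while the summed JAK level was 61.7 ± 5.72 and 76.3 ± 8.09 FPKM. Jak2 held 25.7% ± 0.810 and 24.0% ± 2.84. Tyk2 held 8.73% ± 0.567 and 6.65% ± 0.878, which did not overlap. A smaller share of Jak1 and Tyk2 thus went with levels of these genes that gave no call. Exact permutation tests gave p = 0.1 for Jak1, Jak3 and Tyk2 and p = 0.4 for Jak2.

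Stat3 made up 26.0%, 27.4% and 27.2% of the summed FPKM of the 5 STAT genes in control mice and 36.7%, 43.5% and 53.2% in cachectic mice. Control shares were nearly equal, and the cachexia shares spread over a wide range above them. Stat6, which held the largest control share, was at 38.1% ± 1.60 in control and 27.6% ± 2.28 in cachectic mice (SD, n = 3 each). Stat5a was at 12.8% ± 0.584 and 6.77% ± 2.34, again without overlap. Stat5b, at 21.7% ± 0.599 and 20.99% ± 3.89, overlapped. Stat4 was at 0.726% of the pool in the mouse where it was highest. For Stat3, Stat5a and Stat6 the exact permutation test gave p = 0.1, for Stat4 p = 0.2 and for Stat5b p = 0.8. The mice with more Stat3 in the cachexia group had less Stat5a and Stat6 in the pool. Shares add up to a fixed total, so these orders are not independent of each other. In CPM, which is not a share of the pool, Stat5a also ran 54.2, 40.8 and 30.7 over cachexia replicates 1 to 3. Stat6 was nearly level, at 107, 107 and 105 CPM. The reason for these orders was not tested.

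**Figure D4:**
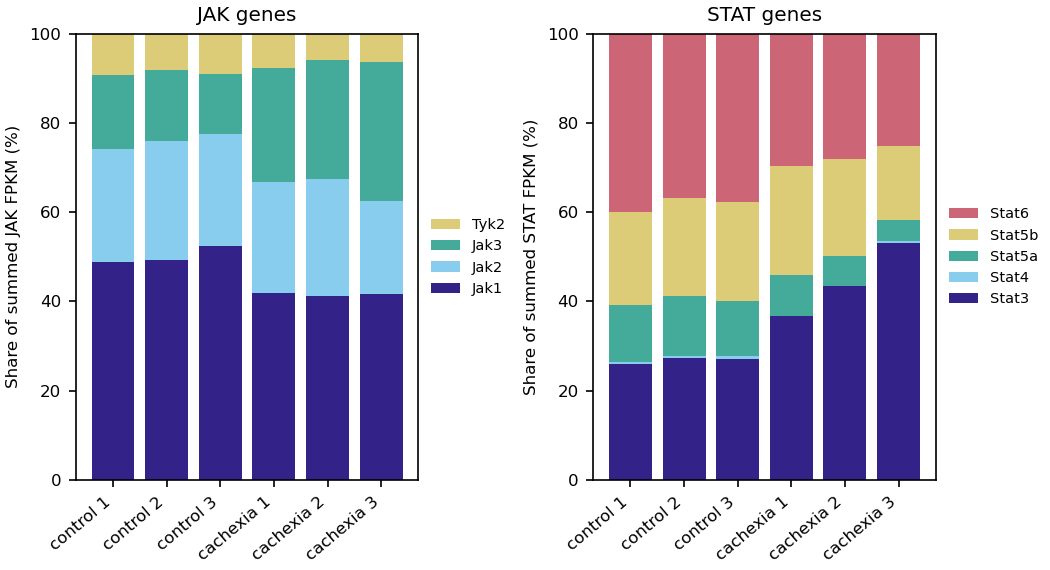
Share of the summed FPKM (%) held by each gene in each sample, for the 4 JAK genes (left) and the 5 STAT genes (right); each stacked bar is 1 mouse and reaches 100. Jak3 takes 13.7% to 16.7% of the JAK pool in control mice and 25.6% to 31.2% in cachectic mice, and Stat3 takes 26.0% to 27.4% and 36.7% to 53.2% of the STAT pool.

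The other genes of the pathway were taken from 10 lists written from their textbook roles, 97 genes in all. Of the 88 tested, 13 rose and 7 fell by edgeR, against 9.0% and 8.63% of all tested genes. Their median log2 fold change was 0.05 (all tested genes -0.003). DESeq2 called 19 pathway genes higher and 9 lower, against 1955 and 1928 of all tested genes. For counts at an unadjusted p no share of all genes is given. Without control replicate 3 the counts of 13 and 7 became 6 and 0. In that setting the calls over all tested genes also dropped, from 1440 to 382 higher and from 1381 to 446 lower. Without control replicate 2 the number of pathway genes that fell was 2, and that of all tested genes was 712. The values below therefore state in how many of the 16 alternative settings each named gene passed.

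Of 28 tested receptor genes in 4 lists, 7 rose and 3 fell, with a median log2 fold change of 0.34. Among the 11 tested receptors of the gp130 and interleukin-10 families, most of which feed STAT3, 4 rose and 1 fell, and without control replicate 3 only 1 rose. Il6st, which encodes the shared chain gp130, rose from 423 ± 26.9 to 698 ± 54.3 CPM (SD, n = 3 each), a log2 fold change of 0.72 (SE 0.16, adjusted p = 0.0201 from edgeR, 13 of 16 settings). Il6ra, the interleukin-6 binding chain, rose from 44.4 ± 9.40 to 103 ± 34.1 CPM, a log2 fold change of 1.22 (SE 0.26, adjusted p = 0.0188 from edgeR, 15 of 16 settings). Lepr, the leptin receptor, rose by 1.29 on the log2 scale (adjusted p = 0.0129 from edgeR, 15 of 16 settings). Csf3r, the granulocyte colony-stimulating factor receptor and a gene of neutrophils, rose by 2.20 (adjusted p = 0.00710 from edgeR, 16 of 16 settings). Csf3r is itself in the list of neutrophil markers given above, so its rise is not separate from theirs. Il11ra1, the interleukin-11 receptor, fell by 0.52 on the log2 scale (adjusted p = 0.0278 from edgeR, 9 of 16 settings). Osmr, the oncostatin M receptor, had a log2 fold change of 0.88 that did not pass (adjusted p = 0.0751 from edgeR).

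Of the 7 tested receptors that signal mainly through JAK2, 2 rose. These were Csf2rb and Csf2rb2, the beta chains of the receptors for interleukins 3 and 5 and granulocyte-macrophage colony-stimulating factor, with log2 fold changes of 1.95 and 2.35 (adjusted p = 0.00356 and 0.00382 from edgeR, 16 of 16 settings each). They are close paralogs, so the split of reads between them is uncertain. Ghr, the growth hormone receptor, was abundant and variable, at 1370, 2221 and 2029 CPM in control mice and 1539, 749 and 1650 CPM in cachectic mice, and its log2 fold change of -0.51 did not pass (adjusted p = 0.322 from edgeR).

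Of the 8 tested receptors of the common gamma chain family, which use JAK3, 1 rose and 2 fell, and the median log2 fold change was -0.07. Their summed level, to which Il4ra contributed most, was 121 to 145 CPM in control mice and 254 to 337 CPM in cachectic mice. Il4ra, the interleukin-4 receptor chain that feeds STAT6, was at 63.9, 70.95 and 59.4 CPM in control mice and 194, 242 and 251 CPM in cachectic mice. The groups were far apart, and Il4ra rose by 1.82 on the log2 scale (SE 0.15, adjusted p = 0.00118 from edgeR, 16 of 16 settings). Il2rb, a receptor chain of T and NK cells, fell by 1.37 (adjusted p = 0.0117 from edgeR, 15 of 16 settings), beside the T and NK markers described with Jak3. Il9r, at 0.953 ± 0.260 CPM in control and 0.271 ± 0.111 CPM in cachectic mice (SD, n = 3 each), fell by 1.79 (adjusted p = 0.0438 from edgeR, 2 of 15 settings that kept it). Il2rg, which encodes the common gamma chain itself and binds JAK3, had a log2 fold change of 0.73 (adjusted p = 0.119 from edgeR) and did not pass. The list of interleukin-4, interleukin-13, interleukin-12 and interleukin-23 receptors had 3 tested genes, of which Il4ra alone passed.

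**Figure D5:**
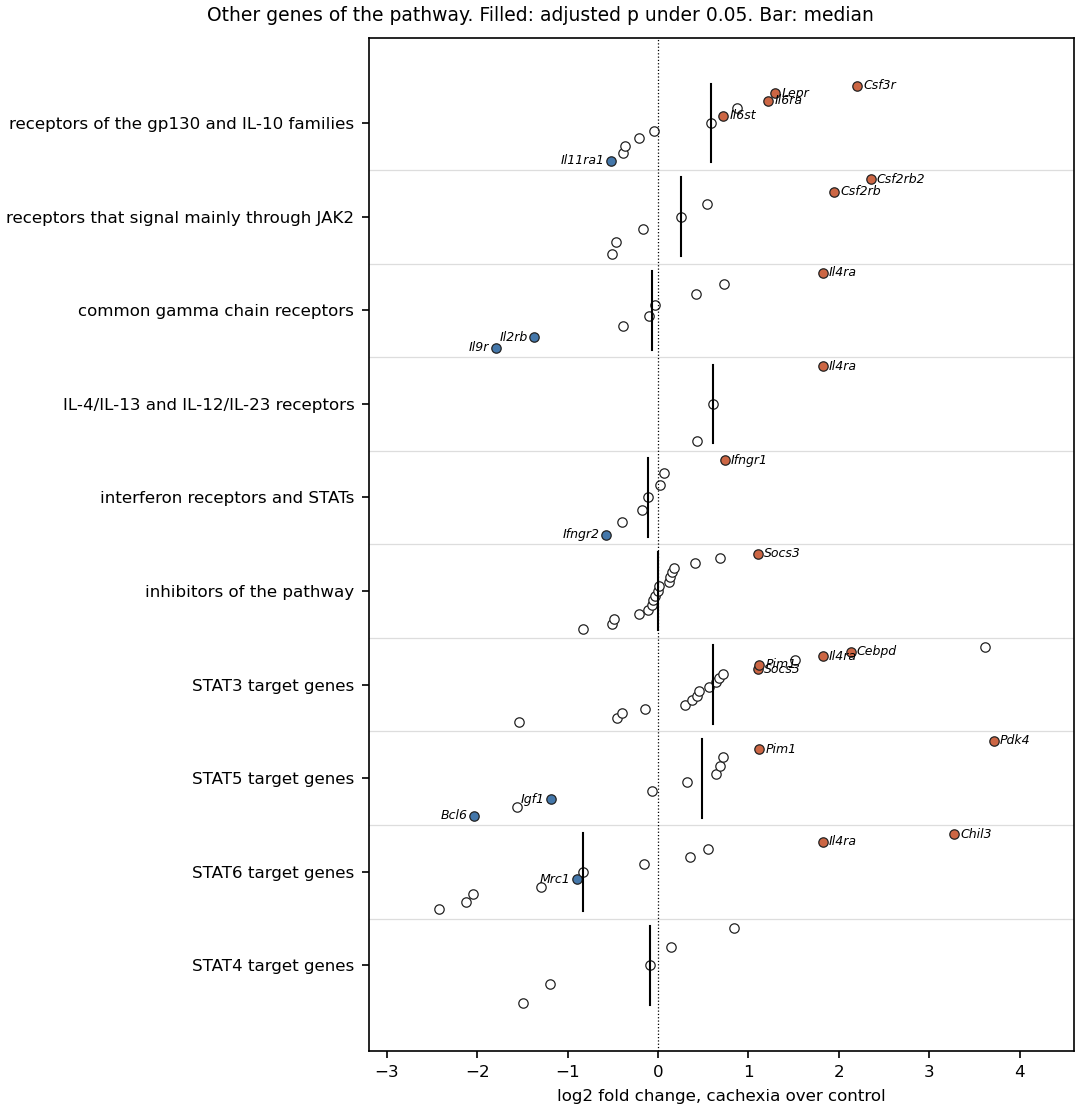
Log2 fold change of cachexia over control for every tested gene of 10 lists of pathway genes; each point is a gene, filled orange (rose) or blue (fell) where the adjusted p from edgeR was under 0.05, and the bar is the list's median. Several genes appear in more than 1 list, for example Il4ra at 1.82. The medians of the STAT3 targets (0.61) and of the gp130 and interleukin-10 receptors (0.59) lie to the right of 0. So do those of the IL-4/IL-13 and IL-12/IL-23 receptors (0.605, 3 genes), the STAT5 targets (0.48) and the JAK2 receptors (0.25). That of the STAT6 targets (-0.83) lies farthest to the left, and the remaining medians lie near 0, the lowest at -0.11.

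In the interferon branch 1 of 7 tested genes rose and 1 fell. Ifngr1, the ligand-binding chain of the interferon-gamma receptor, rose by 0.74 on the log2 scale (adjusted p = 0.0248 from edgeR, 12 of 16 settings). Ifngr2, the partner chain, fell by 0.57 (adjusted p = 0.0235 from edgeR, 11 of 16 settings). Both calls were lost without control replicate 2, without control replicate 3 and with replicate number as a block. That of Ifngr1 was also lost without control replicate 1, and that of Ifngr2 without cachexia replicate 1 or 2.

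Among 17 tested inhibitors (SOCS and PIAS proteins and phosphatases), 1 rose and 0 fell by edgeR and likewise by DESeq2, against 2 and 2 at an unadjusted p under 0.05 in edgeR. The gene that rose was Socs3, at 47.8, 67.2 and 41.3 CPM in control mice and 108.5, 134 and 93.6 CPM in cachectic mice. Its groups did not overlap, the log2 fold change was 1.10 (SE 0.22, adjusted p = 0.0141 from edgeR), and 15 of 16 settings passed, the exception being without control replicate 3. The SOCS genes induced by STAT5 gave no call, with log2 fold changes of 0.68 for Socs2 (adjusted p = 0.0887 from edgeR) and -0.07 for Cish (adjusted p = 0.904 from edgeR). Ptpn6, the phosphatase SHP-1 of blood cells, had a log2 fold change of -0.49 that did not pass (adjusted p = 0.0729 from edgeR).

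Of 18 genes listed as STAT3 targets, 4 rose, 0 fell and 14 did not pass by edgeR. Among all tested genes 9.0% rose and 8.63% fell, and the list was written with earlier results of these data known. A positive log2 fold change was seen for 14 of the 18, and the median was 0.61. At an unadjusted p under 0.05 there were 10 higher and 1 lower, for which no share of all genes is given. DESeq2 called 8 higher and 1 lower, against 1955 and 1928 of all tested genes. Without control replicate 3 edgeR called 2 higher. Besides Socs3 and Il4ra, the genes that rose were Cebpd, a transcription factor of the acute phase and of fat cell formation (log2 fold change 2.13, adjusted p = 0.00807 from edgeR, 16 of 16 settings), and Pim1, a survival kinase (1.12, adjusted p = 0.0264 from edgeR, 12 of 16 settings). Cebpd was at 52.0, 55.7 and 47.3 CPM in control mice and 137, 175 and 366 CPM in cachectic mice, the same order of the cachexia samples as for Stat3. Pim1 and Il4ra had that order too. Socs3 did not, at 108.5, 134 and 93.6 CPM in cachexia replicates 1 to 3, and was lowest where Stat3 was highest. These orders were not tested. All of these genes also answer to other factors, and STAT3 protein or its phosphorylation was not measured here.

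Genes listed as STAT5 targets were called both ways, with 2 of 10 tested genes higher and 2 lower and a median of 0.48. The list mixes genes that STAT5 induces with Bcl6, which it holds down, so the counts and the median give no direction of STAT5 activity. STAT5 protein was not measured here. Igf1, the growth factor through which growth hormone acts, was at 618, 544 and 661 CPM in control mice and at 289, 187 and 325 CPM in cachectic mice. It fell by 1.19 on the log2 scale (SE 0.23, adjusted p = 0.0137 from edgeR, 15 of 16 settings). Bcl6, a repressor that STAT5 is known to hold down, fell by 2.04 (adjusted p = 0.0197 from edgeR, 13 of 16 settings). Pdk4, a kinase that keeps pyruvate from oxidation, rose by 3.71 (SE 0.49, adjusted p = 0.00385 from edgeR, 16 of 16 settings). Pim1, given above, was the other gene that rose. Without control replicate 3, 1 gene of the list was higher and 0 lower. Leaving out cachexia replicate 2 or 3 left 1 higher, and leaving out control replicate 2 or cachexia replicate 1 left 1 lower.

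STAT6 targets, which in fat are known chiefly from macrophages, had a median log2 fold change of -0.83 over 11 tested genes, with 2 higher and 1 lower. Il4ra is in this list too. Chil3, a secreted protein of myeloid cells with close paralogs that could share its reads, rose by 3.28 (SE 0.73, adjusted p = 0.0220 from edgeR, 13 of 16 settings). Mrc1, the macrophage mannose receptor, fell by 0.90 (SE 0.20, adjusted p = 0.0210 from edgeR, 11 of 16 settings). The call of Mrc1 was lost without control replicate 2 or 3, without cachexia replicate 2 or 3 and with replicate number as a block. The number of STAT6 targets called higher was 1 without control replicate 1, control replicate 3 or cachexia replicate 3. The number called lower was 0 without control replicate 2, control replicate 3 or cachexia replicate 2 and with replicate number as a block. It was 2 without cachexia replicate 1, without the filter on low counts, with DESeq2, with limma-voom and with limma on FPKM at either pseudocount. Of 10 macrophage markers 2 rose and 1 fell, the latter being Mrc1 itself, so its fall is no separate observation. The markers, Mrc1 included, had a summed level of 1579 to 1978 CPM in control mice and 1323 to 2055 CPM in cachectic mice. Of the 5 tested STAT4 targets 0 were called by edgeR, with 1 higher and 2 lower at an unadjusted p under 0.05 and 1 lower by DESeq2.

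The genes whose log2 CPM most resembled each member over the 6 samples are given as a description. The points share libraries, and genes that differ between groups in the same direction tend to resemble each other. For Stat3 the most alike were Dnhd1 (Pearson r 0.998), Slc10a6 (0.995) and Cpne8 (0.995), and 324 tested coding genes had an r over 0.95. Slc10a6, a sulfated steroid transporter, had a log2 fold change of 2.67 (adjusted p = 0.0109 from edgeR). For Jak3 they were Tmem173, which encodes the DNA-sensing adaptor STING (0.996), Skp1a (0.995) and Plekhg6 (0.995), with 403 genes over 0.95. Stat5a was most like Pex7 (0.998), Pgam1 (0.997) and Ski (0.995), with 149 genes over 0.95. The other 6 members had between 29 and 74 such genes. Tyk2 was most like Hdhd2 (0.988), Vgll4 and St6galnac4, Jak1 like Gosr1 (0.993), Atp2c1 and Dennd4c, and Jak2 like Tspan7 (0.993), Dgkq and Rin2. Stat5b was most like Idh3b (0.992), Acot2 and Maml2, Stat6 like Akap5 (0.999), Arid1a and Sorl1, and genes much like Stat4 included Ing2 (0.989) and Fam92a.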

How the data were processed

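RNA-seq of eWAT from 3 cachectic and 3 control mice was analyzed. The authors aligned the reads (Hisat2) and assigned them to genes with featureCounts (version 1.5.0-p3 in the submitters' processing notes), and the deposited counts are raw. The deposited FPKM values were calculated by the authors from the count and gene length. The processing notes list mm9, whereas the coordinates in the files match GRCm38 (98.3% of shared identifiers and 9 of 9 members in GENCODE M21), and GRCm38 is used here. A deposited table of the authors' own fold changes and p-values was not used.

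Counts were tested with edgeR 4.0.16 in R 4.3.3 (filterByExpr, TMM, quasi-likelihood test, 16003 genes, threshold 0.05, biological coefficient of variation 0.264), without covariates. The SE is the log2 fold change over the square root of F. Exact permutation tests (scipy 1.17.1) were two-sided, on log2 CPM with a pseudocount of 0.5 or on shares of FPKM. Alternatives were RLE or library totals, no filter, at least 10 counts per sample, DESeq2 1.42.0, limma 3.58.1 (voom, or log2 FPKM with pseudocount 1 or 0.1), a replicate block, protein-coding genes alone, and each sample left out. For shares, counts divided by gene length were also used. They gave the same differences, since FPKM is itself calculated from the count and gene length, and are no independent check. The code was tested on simulated data.

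The genes named are the members, Stat2, up to 5 called genes per pathway list and direction, 12 pathway genes set whatever their value, genes that overlap a member, and for each member the 3 tested coding genes most alike by Pearson r of log2 CPM. Some genes that these rules cover are not reported here. The members and lists were chosen with earlier results of these data known. No pair of samples had near-identical counts.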

Additional observations from a re-analysis of the deposited data

How the results depend on the processing

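Jak3 was called higher in all 16 alternative settings (log2 fold change 1.07 to 1.26) and Stat3 in 15 (0.85 to 1.22), so that 2 members were called higher except without control replicate 3, with a range of 1 to 2 when each sample was left out. The number of members called lower was 0, with 1 under DESeq2 and 0 to 1 when each sample was left out, Stat5a being called without cachexia replicate 1. Pathway genes called higher ranged from 6 to 14 and those called lower from 0 to 7 when each sample was left out. For all genes these ranges were 382 to 1197 higher and 446 to 1142 lower (1440 and 1381 with all samples), the lowest without control replicate 3. The effect of fewer samples was not separated from that of the sample left out. Replicate numbers belong to different mice, and same-numbered samples did not deviate together (correlations of -0.003, -0.011 and 0.008). With the replicate block 913 genes were called higher and 4 pathway genes lower, while Jak3 (adjusted p = 0.0106 from edgeR) and Stat3 (adjusted p = 0.0271 from edgeR) kept their calls. Directions that reversed belonged to genes near 0 and not called, with the cause not tested. Jak1 was at -0.035 without control replicate 1 and at -0.027 without cachexia replicate 2 (highest 0.117). Tyk2 was at 0.027 without cachexia replicate 3 (lowest -0.168) and Stat2 at 0.039 without cachexia replicate 1 (lowest -0.289). Cish was at 0.082 without control replicate 1 or cachexia replicate 2, at 0.030 without control replicate 3 and at 0.123 without cachexia replicate 1 (lowest -0.478 without cachexia replicate 3). The difference in the Stat5b share of the STAT pool, -0.655 percentage points, ranged from -2.37 to 1.46 when each mouse was left out. Library totals shifted the median of all genes by 0.05 on the log2 scale. Stat4 rested on 1 to 35 reads per sample, and the parts of depth and of variation between mice in its wide interval were not separated.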
